A study of Rattus norvegicus with 2 samples.

Results

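Retinoic acid (RA) signaling was examined through 9 genes of its synthesis, breakdown, binding and receptors, namely Stra6, Dhrs3, Aldh1a2, Cyp26b1, Crabp1, Crabp2, Rara, Rarb and Rarg. They were chosen by symbol as a pathway, with earlier results of these data known but by a rule that uses no measured value, and all 9 are present among the 37203 genes of the deposited table. The cardiac outflow tract (OFT) of Sprague-Dawley rat embryos at E13.5 was compared between wild type (WT) and homozygous Snx17 knockout (HO, Snx17-/-), a CRISPR/CAS9 line bred from heterozygous parents. Each genotype gave 1 library, made from RNA of the OFTs of 10 embryos mixed together, so the spread within a genotype is unknown and no p-value is given. The question put to these libraries was whether loss of SNX17, a protein that recycles endocytosed membrane proteins, alters gene expression in the OFT.

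The libraries held 9321811 (WT) and 9528615 (HO) counted reads. Columns of the tables name stage E11.5, whereas the labels give E13.5, which was used. Snx17 itself gave 1365 reads in WT against 994 in HO (fold 0.721, interval 0.663 to 0.783), and a count over the whole gene does not isolate the deleted part, so it checks the label only in part. Smooth muscle markers summed to 19464 and 21831 reads and endothelium markers to 5055 and 5781. No list was made to tell the OFT from the rest of the heart, so the dissection was not checked. Markers of red blood cells summed to 427 and 481 reads, with Alas2 at 273 and 372 but Hbb at 88 and 43. Neuron markers summed to 1200 and 1223, most of them from Stmn2 (1020 and 1096). Among the others, Dcx fell from 28 reads in WT to 3 in HO (fold 0.106, interval 0.0206 to 0.343). Tubb3 had 113 and 84 (fold 0.736, interval 0.548 to 0.984) and Elavl4 23 and 15, whereas Elavl3 had 8 and 17. Of 6 markers of pharyngeal and foregut endoderm, 3 were at 0 in both libraries and the list summed to 5 reads in WT and 7 in HO. Liver markers summed to 83 and 93 reads, and Alb, the serum albumin gene, rose from 1 read in WT to 22 in HO (fold 21.8, interval 3.52 to 898). The other liver markers did not share this, with 15 and 10 reads for Afp, 22 and 15 for Apoa1 and 43 and 44 for Ttr.

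RA is made from retinol, which cells take up from its plasma carrier through the membrane receptor STRA6. Retinol is oxidized to retinaldehyde, DHRS3 can reduce retinaldehyde back to retinol, and ALDH1A2 oxidizes retinaldehyde to RA. CYP26 enzymes break RA down, CRABP proteins carry it inside the cell, and RA receptors (RARs) paired with RXRs switch target genes on when they bind it. In mouse embryos RA made by ALDH1A2 limits the posterior extent of the second heart field, and both too little and too much RA disturb the OFT. In the developing mouse heart Aldh1a2 is expressed in the epicardium and in posterior precursors.

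A known target of RA is Rarb, whose promoter holds a site for RAR and RXR. The promoter given for it by RefSeq (GRCr8, 300 bases around the start) is shown because it was the only one of 10 promoter windows of the 9 genes, Rarg having 2, with a direct repeat of the hexamer that RARs recognize. The search covered both strands for AGGTCA or GGGTCA or AGTTCA or GGTTCA, repeated in the same direction at a spacing of 5 (DR5), 2 (DR2) or 1 (DR1). The capitals mark the DR5, from base 25 to base 41 after the start, on chr15:11336142-11336441, plus strand.

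Rarb: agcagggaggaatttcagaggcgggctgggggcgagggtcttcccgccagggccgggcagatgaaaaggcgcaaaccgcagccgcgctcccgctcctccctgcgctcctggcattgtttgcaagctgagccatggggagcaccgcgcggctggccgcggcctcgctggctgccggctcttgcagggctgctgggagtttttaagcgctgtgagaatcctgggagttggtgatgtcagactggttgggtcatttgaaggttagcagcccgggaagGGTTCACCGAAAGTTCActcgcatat

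A DR5 of this kind occurred in 0.382% of 33469 rat promoter windows of the same length, and any of the 3 repeats in 0.777%. Single hexamers, which occurred in 44.4% of all windows, were found in those of Rara, Rarb, Stra6 and 1 of the 2 of Rarg. The windows of Aldh1a2, Dhrs3, Crabp1, Crabp2 and Cyp26b1 held none of these letters. A match of letters is a description and does not show that a receptor binds.

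In the WT OFT, Aldh1a2 had the highest level per gene length of the 9 genes, at 52.4 RPKM (reads scaled by gene length and by the total of the library), with a 95% counting interval from 49.4 to 55.6. Rara followed at 43.4 RPKM (40.9 to 46.0). Dhrs3, Crabp1 and Rarg lay together at 20.6 RPKM each and did not differ beyond their intervals. Cyp26b1 had 14.4 RPKM, below these 3. The lowest levels were those of Crabp2 (9.33 RPKM), Rarb (7.49 RPKM) and Stra6 (6.14 RPKM), whose intervals overlapped from each to the next. Against the 23019 genes with any read, Aldh1a2 lay at percentile 93.2 of the WT levels and Stra6 at percentile 60.5.

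In the HO OFT the order differed at its top and middle. Rara had the highest point at 37.7 RPKM (35.4 to 40.1), and that of Aldh1a2 was 34.6 RPKM (32.2 to 37.2), with overlapping intervals. Rarg (17.5 RPKM) and Cyp26b1 (15.8 RPKM) then stood above Dhrs3 (11.5 RPKM, 9.86 to 13.3) and Crabp1 (10.8 RPKM). Crabp2 (8.77 RPKM), Rarb (6.75 RPKM) and Stra6 (4.94 RPKM) kept the last 3 places. In the plot of levels by library the intervals of Aldh1a2, Rara, Dhrs3, Crabp1 and Rarg do not overlap between WT and HO, that of Rarg by a narrow gap, and those of the other genes overlap.

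**Figure D1:**
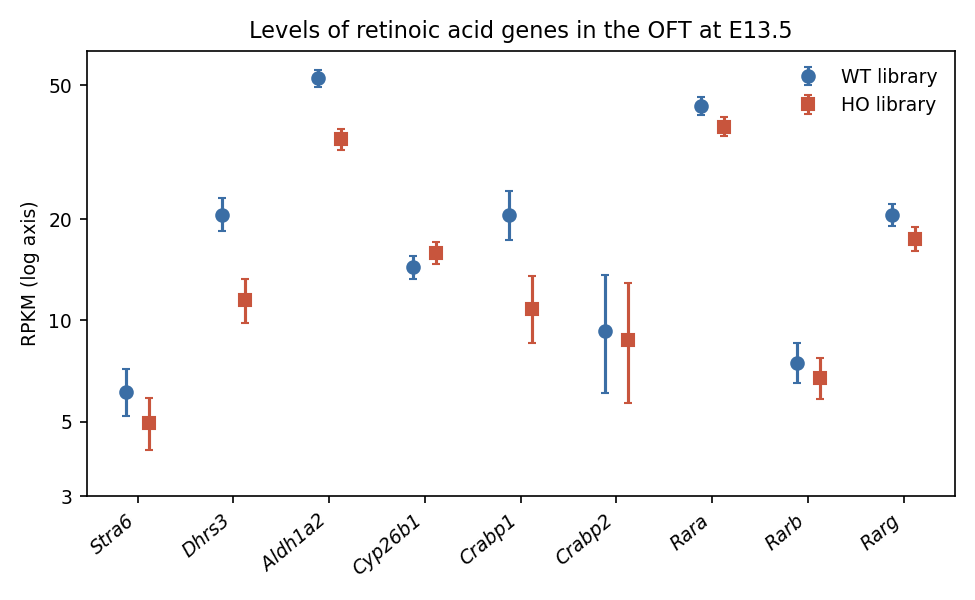
RPKM (log axis) of the 9 genes in the WT library (circles) and the HO library (squares), with bars for the exact Poisson 95% interval of the counted reads; each point is 1 library. Aldh1a2, Dhrs3 and Crabp1 stood lower in HO with intervals apart (52.4 against 34.6 RPKM, 20.6 against 11.5 and 20.6 against 10.8), Rara and Rarg stood lower by less (43.4 against 37.7 and 20.6 against 17.5), and Cyp26b1 alone had the higher point in HO.

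Folds divide the reads of HO by those of WT, with library sizes scaled by the trimmed mean of M-values (TMM), and the exact 95% interval covers counting error only. A gene met the rule of higher or lower where the whole interval lay past 1.5-fold in either direction. None of the 9 genes met this rule. Of the 15426 genes with at least 20 reads, 0.771% met it as higher and 1.18% as lower, so that a count of 0 among 9 is near the background. The median log2 fold of the 9 genes was −0.22, against 0.01 for all genes tested, and 8 of the 9 log2 folds lay below 0, as did 48.6% of all genes tested. A looser reading, added after the values were seen, asks only whether the interval leaves out equal expression. It lay wholly below 1 for 5 of the 9 genes, namely Aldh1a2, Dhrs3, Crabp1, Rara and Rarg, and wholly above 1 for none. Of all genes tested, 17.0% lay wholly below 1 and 20.3% wholly above. Among the 12073 genes with at least 100 reads, as 8 of the 9 genes have, these shares were 18.9% and 23.9%.

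**Figure D2:**
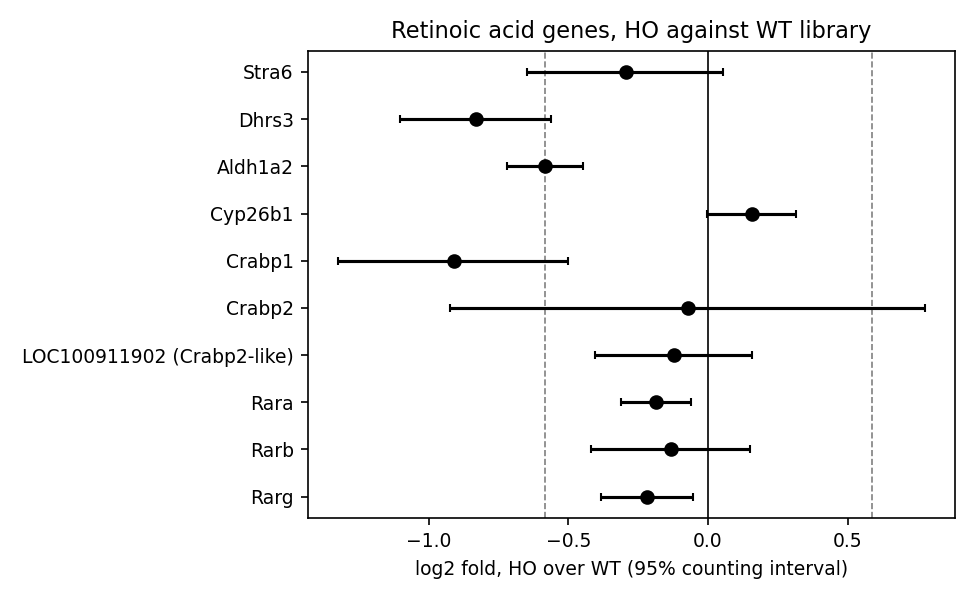
Log2 fold of HO over WT (points) with exact 95% counting intervals (bars) for the 9 genes and for LOC100911902, a second gene annotated as Crabp2-like; the solid line marks equal expression and the dashed lines 1.5-fold in either direction. Every interval reaches into the range within 1.5-fold, and those of Dhrs3 (−1.10 to −0.56), Crabp1 (−1.33 to −0.50), Aldh1a2 (−0.72 to −0.45) and Stra6 (−0.65 to 0.05) cross the left dashed line. That of Crabp2 (−0.92 to 0.78) crosses both dashed lines.

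Uptake and the retinol side of the pathway came first. Stra6 had 153 reads in WT and 126 in HO, with a fold of 0.815 whose interval (0.639 to 1.04) held 1. Dhrs3, the retinaldehyde reductase, which in several species is itself induced by RA, was read 315 times in WT and 179 times in HO. Its fold was 0.562, with an interval from 0.465 to 0.678, and a HO count of 175 or fewer would have met the rule. It met the rule with upper-quartile scaling (log2 fold −0.87, interval −1.15 to −0.61) and with folds centered by gene length or by abundance (both −0.88, interval up to −0.61).

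Aldh1a2, the main RA-producing enzyme of the early embryo, gave 1097 reads in WT and 740 in HO. The fold of 0.667 was close to 1/1.5, and its interval ran from 0.607 to 0.733, below 1 but across 1/1.5. A HO count of 670 or fewer would have met the rule. Aldh1a2 supplied 87.5% of the reads of the 3 Aldh1a genes in WT (exact Clopper-Pearson 95% interval 85.6 to 89.3) and 85.8% in HO (83.3 to 88.1). Of the other 2, Aldh1a3, which also makes RA, had 115 and 75 reads, with a fold of 0.645 (0.476 to 0.871), and Aldh1a1 had 41 and 47 reads. Neither met the rule.

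Cyp26b1, the RA-degrading enzyme, stood on the opposite side, with 610 reads in WT and 687 in HO. Its fold of 1.11 had an interval from 0.998 to 1.24, which held 1. On the log2 scale the interval left out 0 by a small margin with DESeq2 size factors (0.012 to 0.33) and with centering by gene length (0.012 to 0.33), and held 0 with the other 3 scalings or centerings tried, so whether it lay above equal expression depended on the scaling. It supplied 97.3% of the Cyp26 reads in WT (95.7 to 98.4) and 98.7% in HO (97.6 to 99.4), while Cyp26a1 had 12 and 8 reads and Cyp26c1 had 5 and 1. A ratio taken within a library does not depend on library scaling. For each Cyp26b1 read there were 1.80 Aldh1a2 reads in WT and 1.08 in HO, and the HO ratio was 0.599 of the WT ratio (exact conditional 95% interval 0.518 to 0.693). For Dhrs3 per Cyp26b1 read the HO ratio was 0.505 of that in WT (0.405 to 0.628). For Dhrs3 per Aldh1a2 read it was 0.842 (0.681 to 1.04), which did not separate from 1. These pairs were chosen after the counts were seen.

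The binding proteins were read at unequal depth. Crabp1, which binds RA in the cytoplasm and marks neural crest and mesenchyme in mouse embryos, was read 145 times in WT and 78 times in HO, the lowest fold of the 9 genes at 0.532 (0.399 to 0.706). At its depth a HO count of 73 or fewer would have met the rule. Crabp2, which delivers RA to the nucleus, had only 26 and 25 reads, a fold of 0.951 with a wide interval from 0.527 to 1.71. Its HO count would have had to reach 64, or fall to 7, to meet the rule. A further gene named as Crabp2-like, LOC100911902, held most of the Crabp2 and Crabp2-like reads, with 221 from WT against 205 from HO (fold 0.918, interval 0.755 to 1.12). Their sequences were not compared, and reads may be divided between these genes in a way the sources used here do not give, so both values are uncertain. The recovered length of Crabp2 is 299 bases against 1559 for LOC100911902, so the RPKM of Crabp2 rests on a short gene model with few reads.

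Within the 3 CRABP genes, Crabp1 took 37.0% of the reads in WT (32.2 to 42.0) and 25.3% in HO (20.6 to 30.6), with intervals that do not overlap. LOC100911902 took 56.4% (51.3 to 61.3) and 66.6% (61.0 to 71.8), and Crabp2 itself 6.63% and 8.12%. Relative to the reads of Crabp2 and LOC100911902 together, the HO ratio of Crabp1 was 0.578 of the WT ratio (0.410 to 0.812). Without LOC100911902 the ratio was 0.559, and its interval, from 0.289 to 1.09, held 1.

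All 3 receptors had folds within 1.5-fold. For Rara, the most abundant RAR, 1098 reads were counted in WT against 975 in HO (fold 0.879, interval 0.805 to 0.959). Rarg, an RAR of mesenchyme and skeletal precursors, had 660 and 573 reads (fold 0.859, interval 0.767 to 0.962). Rarb, whose promoter with the DR5 is printed above, had 216 and 199 (fold 0.912, interval 0.748 to 1.11). For Rara and Rarg the interval lay below 1 and wholly within 1.5-fold, and the interval of Rarb was within 1.5-fold as well.

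The make-up of the receptor pool was close in both libraries. Rara held 55.6% of RAR reads in WT (53.4 to 57.8) and 55.8% in HO (53.4 to 58.2). Rarg held 33.4% (31.4 to 35.6) and 32.8% (30.6 to 35.1), and Rarb 10.9% (9.60 to 12.4) and 11.4% (9.94 to 13.0). Per gene length the shares of Rara, Rarg and Rarb were 60.7%, 28.8% and 10.5% in WT and 60.9%, 28.2% and 10.9% in HO. The HO ratio of Rarb to Rara reads was 1.04 of that in WT (0.835 to 1.29) and that of Rarg to Rara 0.978 (0.847 to 1.13).

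**Figure D3:**
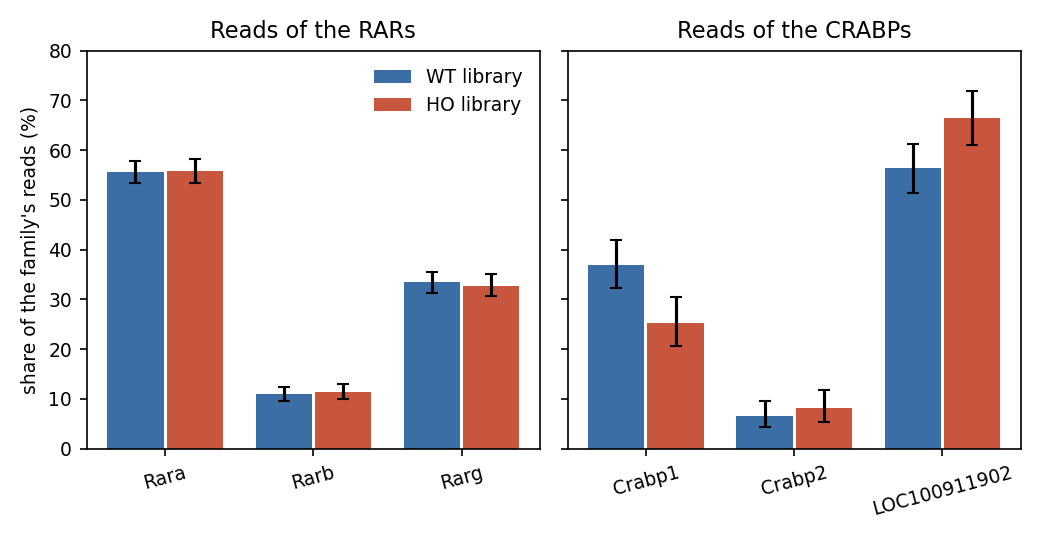
Share (%) of each gene in the reads of the 3 RARs (left) and of Crabp1, Crabp2 and the Crabp2-like LOC100911902 (right), in the WT and HO libraries, with exact Clopper-Pearson 95% intervals. The RAR shares nearly coincide between the libraries (Rara 55.6% and 55.8%), whereas Crabp1 went from 37.0% of the CRABP reads in WT to 25.3% in HO.

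Other genes of the pathway were followed in 7 lists, of which 34 of 46 genes in the table had enough reads to be tested. None was higher by the rule and 1 was lower, against 0.771% and 1.18% of all genes tested. The median log2 fold was −0.18, and 76.5% of the log2 folds lay below 0, against 48.6% of all genes tested. Genes that supply and store retinol had a median of 0.10, and none of the 8 tested met the rule. The interval was wholly below 1 for 1 of the 8 and wholly above for none, against 17.0% and 20.3% of all genes tested. Reads of the 14 genes of this list in the table summed to 2656 and 2417 (fold 0.900, interval 0.852 to 0.952). Rdh11, a retinol dehydrogenase, had 348 reads in WT against 397 in HO (fold 1.13, interval 0.975 to 1.31). Rdh10, the retinol dehydrogenase that feeds RA synthesis in mouse embryos, had 30 and 22 reads. Adh7 and Bco1 were at 0 in both libraries, and Stra6l is not in the table.

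None of the RXR partners met the rule. Rxrb had 746 and 672 reads (fold 0.891, interval 0.802 to 0.991), and Rxra 303 and 232 (fold 0.758, interval 0.636 to 0.902). Fabp5, a fatty acid-binding protein that can carry RA to the receptor PPARD, had 592 and 767 reads (fold 1.28, interval 1.15 to 1.43), and the list had a median log2 fold of −0.18. None of 8 corepressors and coactivators met the rule. All 8 log2 folds lay below 0, as did 48.6% of all genes tested, and the median was −0.14. The interval lay wholly below 1 for 5 of the 8, against 17.0% of all genes tested. Their reads summed to 10480 and 9162 (fold 0.865, interval 0.841 to 0.890). Ncor1, a corepressor that binds RARs without ligand, was not among the 5. It had 1889 and 1834 reads (fold 0.961, interval 0.900 to 1.03).

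Of 11 genes known to respond to RA in embryos, 6 could be tested. All 6 log2 folds lay below 0, as did 48.6% of all genes tested, and the median was −0.53. For 5 of the 6 the interval lay wholly below 1, against 17.0% of all genes tested. Hoxb5, a Hox transcription factor, was the gene lower by the rule, with 26 WT reads against 3 HO reads (fold 0.114, interval 0.0221 to 0.373). The most abundant genes of this list stood nearer to equal expression. Meis2, a Hox cofactor, had 2396 and 2126 reads (fold 0.878, interval 0.828 to 0.931). Tgm2, a transglutaminase, had 7222 and 7127 (fold 0.977, interval 0.945 to 1.01), and its interval alone held 1.

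Of 4 genes of the anterior second heart field that RA restricts in mouse embryos, none met the rule and the median log2 fold was −0.64. Isl1, a transcription factor of cardiac precursors, had 387 and 343 reads, and Tbx1, a transcription factor needed for OFT growth, 61 and 29 (fold 0.470, interval 0.291 to 0.743). Fgf10 and Fgf8, growth factors of this field, had 16 and 6 reads and 12 and 17 reads.

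**Figure D4:**
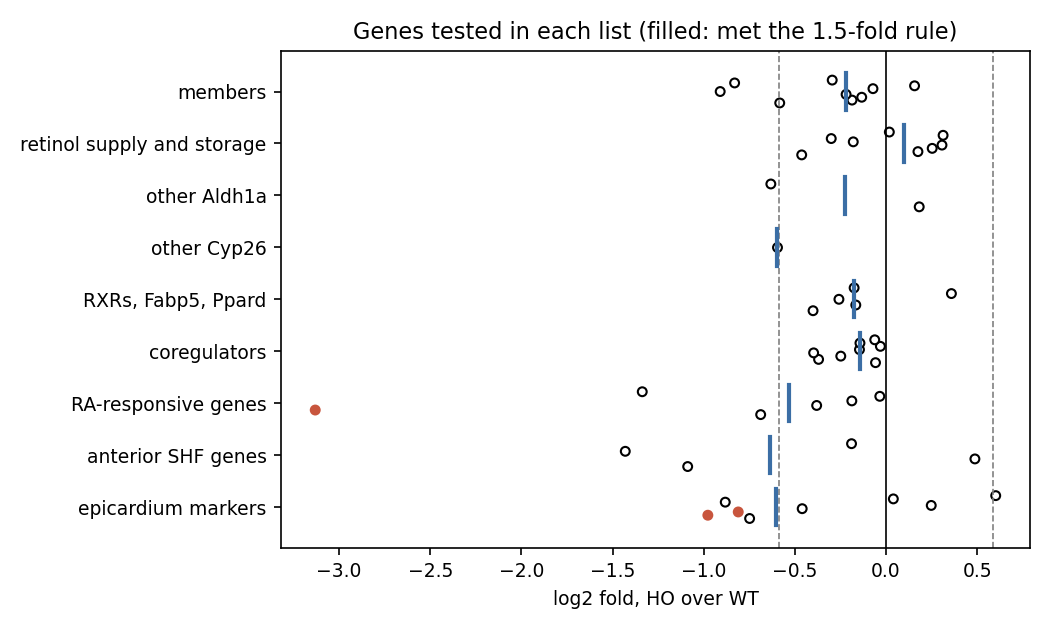
Log2 fold of HO over WT for each tested gene (points) in the 9 genes (members), the 7 lists of other pathway genes and the epicardium markers; blue bars are medians, dashed lines mark 1.5-fold and filled points met the rule. Hoxb5 is the only filled point among the pathway lists, and Tbx18 and Tcf21 are filled among the epicardium markers.

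Because Aldh1a2 is expressed in the epicardium and in posterior precursors of mouse hearts, their markers were set beside it. In bulk tissue, fewer cells of a type and less RNA per cell cannot be told apart. All 8 epicardium markers were read, 5 had intervals below 1, and 2 were lower by the rule. The other 3, Krt19, Upk1b and Msln, had folds of 1.03, 1.19 and 1.52, with intervals that held 1. Of all genes tested, 17.0% had intervals below 1 and 1.18% were lower by the rule. Tbx18, a transcription factor of the epicardium, had 1054 WT reads and 541 HO reads (fold 0.508, interval 0.457 to 0.564). Tcf21, a transcription factor of epicardial cells and fibroblast precursors, had 545 and 314 (fold 0.570, interval 0.495 to 0.656). Summed over the 8 markers there were 2795 reads in the WT library against 1853 in the HO library (fold 0.656, interval 0.618 to 0.696). Most of this fall came from Tbx18 and Tcf21. Aldh1a2 gave 0.392 reads per marker read in WT and 0.399 in HO, a ratio of 1.02 between the libraries (0.910 to 1.14).

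This ratio depended on the marker. Against Tbx18 alone Aldh1a2 was relatively higher in HO (ratio 1.31, interval 1.14 to 1.51), and against Krt19, a keratin whose reads were 539 and 560, it was lower (ratio 0.649, interval 0.557 to 0.757). Against Wt1, Tcf21 and Upk3b the ratios were 1.12, 1.17 and 0.918, and each interval held 1. For Dhrs3 the ratio to the summed epicardium markers was 0.857 (0.703 to 1.04) and for Crabp1 it was 0.811 (0.604 to 1.08). The part of the epicardium in these values was not tested.

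Of 5 markers of the posterior second heart field, Hoxb1 was at 0 in both libraries and 3 could be tested. By the rule, 1.18% of all genes tested were lower and 0.771% higher. Osr1 was lower by the rule, with 159 and 38 reads (fold 0.236), and Wnt2 higher, with 38 and 86 (fold 2.24). Tbx5, also tested, had 85 and 93 reads (fold 1.08, interval 0.798 to 1.47). The list summed to 293 and 219 reads, and most of this fall came from Osr1. Relative to the sum the HO ratio was 0.903 of the WT ratio for Aldh1a2 (0.737 to 1.11), 0.760 for Dhrs3 (0.585 to 0.988) and 0.720 for Crabp1 (0.512 to 1.01). Of 7 neural crest and glial markers, Foxd3 and Tfap2b were at 0 in both libraries, none of the 5 tested met the rule, and the list summed to 2390 and 2335 reads. Crabp1 relative to this sum stood at 0.551 of its WT ratio in HO (0.410 to 0.735). Relative to the summed cushion mesenchyme markers, which gave 7784 and 6804 reads, the ratios were 0.772 for Aldh1a2, 0.650 for Dhrs3 and 0.615 for Crabp1. The lower sum in HO came mostly from Pdgfra, a growth factor receptor of mesenchyme, with 2616 and 1665 reads (fold 0.630, interval 0.592 to 0.670), whereas Twist1, a transcription factor, had 852 and 1023 (fold 1.19, interval 1.08 to 1.30). Relative to 5 myocardium markers, with 148070 and 168457 reads, they were 0.593, 0.499 and 0.473. The part of these cell types in the values of the 3 genes was not tested.

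**Figure D5:**
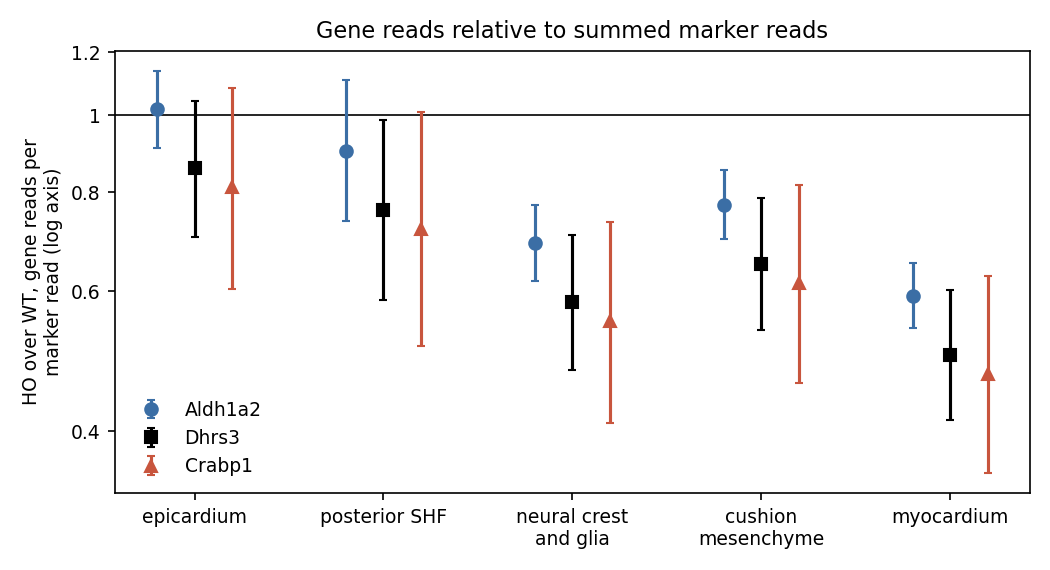
Reads of Aldh1a2, Dhrs3 and Crabp1 per summed read of each marker list, HO library over WT library (log axis), with exact conditional 95% intervals; the line marks an equal ratio. The points lie nearest to 1 against epicardium markers (1.02, 0.857 and 0.811) and lowest against myocardium markers (0.593, 0.499 and 0.473). Within a gene this order is set by the folds of the marker sums, from 0.656 for epicardium to 1.13 for myocardium. For each gene the intervals against epicardium and posterior second heart field markers overlap.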

How the data were processed

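RNA of pooled OFTs was sequenced on a Proton instrument from single-end libraries of the Ion Total RNA-Seq Kit. The authors removed adaptor, ambiguous and low-quality reads, aligned the rest to Rnor 6.0 (named also in the submitters' processing notes) with MapSplice, and deposited raw counts per gene. Which program, annotation and strand setting produced these counts is not given in the sources used here. A second deposited table holds RPKM, which is the same counts divided by gene length and library total, so gene lengths were recovered from them.

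TMM scaling used edgeR 4.0.16 in R 4.3.3 (HO over WT ratio 1.01). DESeq2 1.42.0 served for size factors only, since neither tool can estimate spread from 1 library per group. Intervals came from Python 3.11.15 with scipy 1.17.1, centering (lowess, span 0.3) from statsmodels 0.14.6. The rule was tested on simulated data. Intervals cover counting error only. The members, lists and settings were chosen with earlier results of these data known. Named genes were all members, list genes that met the rule and otherwise the 2 of a list with most reads, except genes that are not reported here. Rdh10, Rxra, Fgf8, Fgf10, Meis2, Tgm2, LOC100911902, Afp, Apoa1, Ttr, Pdgfra, Twist1, genes at 0 and single epicardium markers other than Tbx18 and Tcf21 were added after their values were seen. So were Tbx5, Stmn2, Tubb3, Elavl3, Elavl4, Hbb and Alas2. Ratios within a library, and the reading of intervals against 1, were also added after the values were seen. The protein sequences planned for the CRABPs and RARs were not used here.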

Additional observations from a re-analysis of the deposited data

How the results depend on the processing

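No paired analysis was possible because each genotype has 1 library, and for the same reason no replicate could be left out. No member was higher under any setting, and the median of the 9 genes lay between −0.26 and −0.20 (log2) under every scaling, centering and filter tried. Dhrs3 alone was lower by the rule with upper-quartile scaling, with centering by gene length and with centering by abundance, a count of 1 in each. The fold alone, without its interval, gave 2 lower members (Dhrs3 and Crabp1), and intervals set against 1 gave 5. Crabp2 turned from −0.07 to 0.025 (log2, interval −0.83 to 0.87) with centering by abundance. The cause was not tested. Over all genes, 119 were higher and 182 lower by the rule. These counts were 75 and 110 with at least 100 reads, 73 and 117 with 99% intervals, 42 and 57 at a 2-fold threshold, 967 and 1158 by the fold alone, and 3126 and 2624 with intervals set against 1. Summing the reads of LOC100911902 into Crabp2 changed no call. Depth limits Crabp2 most, followed by Crabp1 and Stra6.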
